A study of Mus musculus with 15 samples.

Results

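The genes described here are 29 genes of cholesterol synthesis and of the SREBP pathway, followed in mouse embryonic fibroblasts that lacked p27, stathmin or both. They were taken by name: every probe whose gene carried one of the 29 symbols, current or older, was kept, which gave 60 probes. All 29 genes were measured, out of 27670 genes on the array, and they were among the 18710 genes bright enough to test. Sample RNA was compared with a common reference of pooled mouse embryonic fibroblasts on 15 arrays of 2 colours. A value is a log2 ratio of sample over reference, so 0 is the level of the reference, and a difference between genotypes is a difference of such values.

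The fibroblasts came from C57B6 embryos of day 13.5 at passage 3, and were lysed at high confluence after 24 h without serum, at 37 °C and 5% CO2. Wild type cells gave 4 arrays, p27 knock-out cells 4, stathmin knock-out cells 4 and double knock-out cells 3. p27 is the cell cycle inhibitor encoded by Cdkn1b, and stathmin, from Stmn1, promotes the disassembly of microtubules. The labels do not say which arrays came from separate embryos, so the p-values measure the spread between these arrays, which may in part be technical. Each of 4 slides held 1 array of each genotype, except slide 2, which had no double knock-out. Within a slide each genotype kept its own place, and an effect of that place cannot be told apart from one of genotype.

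Cholesterol is made from acetyl-CoA through mevalonate, farnesyl diphosphate, squalene and lanosterol. The genes of this route are switched on together by SREBP-2, the product of Srebf2, a membrane-bound transcription factor that SCAP escorts from the endoplasmic reticulum to the Golgi when membrane sterol is low. INSIG proteins hold SCAP back when sterol is plentiful. SREBP-1, from Srebf1, drives mainly the genes of fatty acid synthesis. Fibroblasts deprived of serum receive no lipoprotein cholesterol and depend on their own synthesis.

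The promoters of 23 of the 29 genes were found in RefSeq's windows of build GRCm38.p6, which run from 250 bases before to 50 bases after a transcript start, and 5 of the 23 had several windows. Any match in any window of a gene, on either strand, was counted. The sterol regulatory element TCACNCCAC was found in the promoter of 1 gene, Hmgcs1, or 4.35% of the 23, against 1.44% of 27025 genes. The CCAAT box, the site of the SREBP partner NF-Y, was found in 20 of the 23, or 87%, against 41.1% of all genes. GGGCGG, the GC box bound by Sp1, was in 19 of the 23 (82.6%) against 38.2%, and the E-box CACGTG in 5 (21.7%) against 8.09%. These are matches of letters in the window and no evidence of binding. The 250 bases before the start are shown for 4 genes: Hmgcs1, the only one with the element, Insig1 and Idi1, which varied with it (r of 0.64 and 0.79 over the arrays), and Lpin1, which has neither the element nor a CCAAT box and varied apart from Hmgcs1 (r = 0.21). CCAAT boxes did not go with likeness to Hmgcs1 in every member: Insig2 and Ggps1 each had 3 in a window, with r of -0.31 and 0.16. The window of Lpin1 belongs to an inner start, since the gene as annotated runs on to base 16653903. Capitals mark the sterol regulatory element (TCACCCCAC, in Hmgcs1) and CCAAT or its reverse complement ATTGG.
Hmgcs1, chr13:119690101-119690350, plus strand: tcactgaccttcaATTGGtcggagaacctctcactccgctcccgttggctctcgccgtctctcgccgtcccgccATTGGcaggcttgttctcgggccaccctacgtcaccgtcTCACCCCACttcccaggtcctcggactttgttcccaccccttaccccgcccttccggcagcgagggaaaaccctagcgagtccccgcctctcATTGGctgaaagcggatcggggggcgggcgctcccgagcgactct
Insig1, chr5:28071162-28071411, plus strand: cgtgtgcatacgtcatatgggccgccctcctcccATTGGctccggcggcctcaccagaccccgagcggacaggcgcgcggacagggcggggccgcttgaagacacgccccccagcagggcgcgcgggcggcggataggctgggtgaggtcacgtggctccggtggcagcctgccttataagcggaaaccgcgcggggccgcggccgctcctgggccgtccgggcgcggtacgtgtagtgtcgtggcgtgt
Idi1, chr13:8885356-8885605, plus strand: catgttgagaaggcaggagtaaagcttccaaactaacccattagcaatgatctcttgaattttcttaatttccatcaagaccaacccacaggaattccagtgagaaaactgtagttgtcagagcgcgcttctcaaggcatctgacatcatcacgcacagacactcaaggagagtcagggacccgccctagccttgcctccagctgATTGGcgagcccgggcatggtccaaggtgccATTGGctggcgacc
Lpin1, chr12:16610967-16611216, minus strand: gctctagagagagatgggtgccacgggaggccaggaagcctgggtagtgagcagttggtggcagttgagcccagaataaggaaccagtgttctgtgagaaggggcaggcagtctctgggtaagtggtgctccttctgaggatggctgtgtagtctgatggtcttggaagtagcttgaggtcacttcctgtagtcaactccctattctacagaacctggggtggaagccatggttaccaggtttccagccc

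The arrays had 59.3 to 78.9% of their spots well above background in the sample channel. Of the 60 probes of the 29 genes, 57 were well above background on every array. The targeted genes checked the labels in part. A second probe of Stmn1 fell by 3.54 (SE 0.19, adjusted p = 1.39e-06, limma) in stathmin knock-out cells and fell by 3.52 (SE 0.21, adjusted p = 3.91e-06, limma) in double knock-out cells. Its values were -2.98 to -2.64 on the 7 arrays without stathmin and 0.41 to 1.49 on the other 8, whereas the brightest Stmn1 probe overlapped between all genotypes. For Cdkn1b the brightest probe overlapped as well, at -0.22 to 0.93 in wild type, -1.10 to 0.052 in p27 knock-out and -1.36 to 0.19 in double knock-out cells, and the other Cdkn1b probes were too dim to test. One of these read 0.22 to 0.36 in wild type, -0.20 to -0.10 in p27 knock-out and -0.18 to -0.079 in double knock-out cells. It was lower than wild type where the labels say p27 is missing. It was well above background on 2 of 4 wild type arrays and 0 of the 7 without p27. In stathmin knock-out cells, which carry p27, it ran from -0.13 to 0.53, overlapping the cells without p27. The other dim probe did not fall, at -0.13 to -0.012 in wild type, -0.33 to 0.36 in p27 knock-out and -0.28 to 0.032 in double knock-out cells. Loss of p27 was thus not checked by a tested probe. The labels give no position of the probes within the deleted parts. All 14 fibroblast markers were well above background on every array. Of 18 macrophage markers 14 were too, and their mean ran from -2.79 on p27 knock-out 3 to 1.88 on p27 knock-out 2. Of 12 epithelial markers 7 were above background on every array, and their mean ran from 0.051 to 0.52 in wild type, -0.92 to 0.096 in p27, -0.66 to -0.14 in stathmin and -0.49 to -0.28 in double knock-out cells. Of 9 epithelial markers tested, 8, 7 and 9 were below 0 in these genotypes against wild type (medians -0.80, -0.53 and -0.43). At an unadjusted p under 0.05 there were 4, 3 and 3, against 5.71%, 4.75% and 2.34% of all genes, and 0 were called (limma). The part of these markers in the results on sterol genes was not tested. Well above background on every array were, of 7 endothelial markers, 2, of 7 adipocyte markers 3 and of 6 hepatocyte markers 1. Wild type 3 and 4 correlated at 0.84 across genes, more closely than any other pair. The next pair was p27 knock-out 4 with stathmin knock-out 1 (0.65), the arrays of their genotypes with high sterol enzymes. Across genes, p27 knock-out 4 correlated with the other p27 knock-out arrays at -0.13 to 0.12, and stathmin knock-out 1 with the other stathmin knock-out arrays at -0.080 to 0.063. Fewer cells of a type and less RNA per cell cannot be told apart in such bulk samples.

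**Figure D1:**
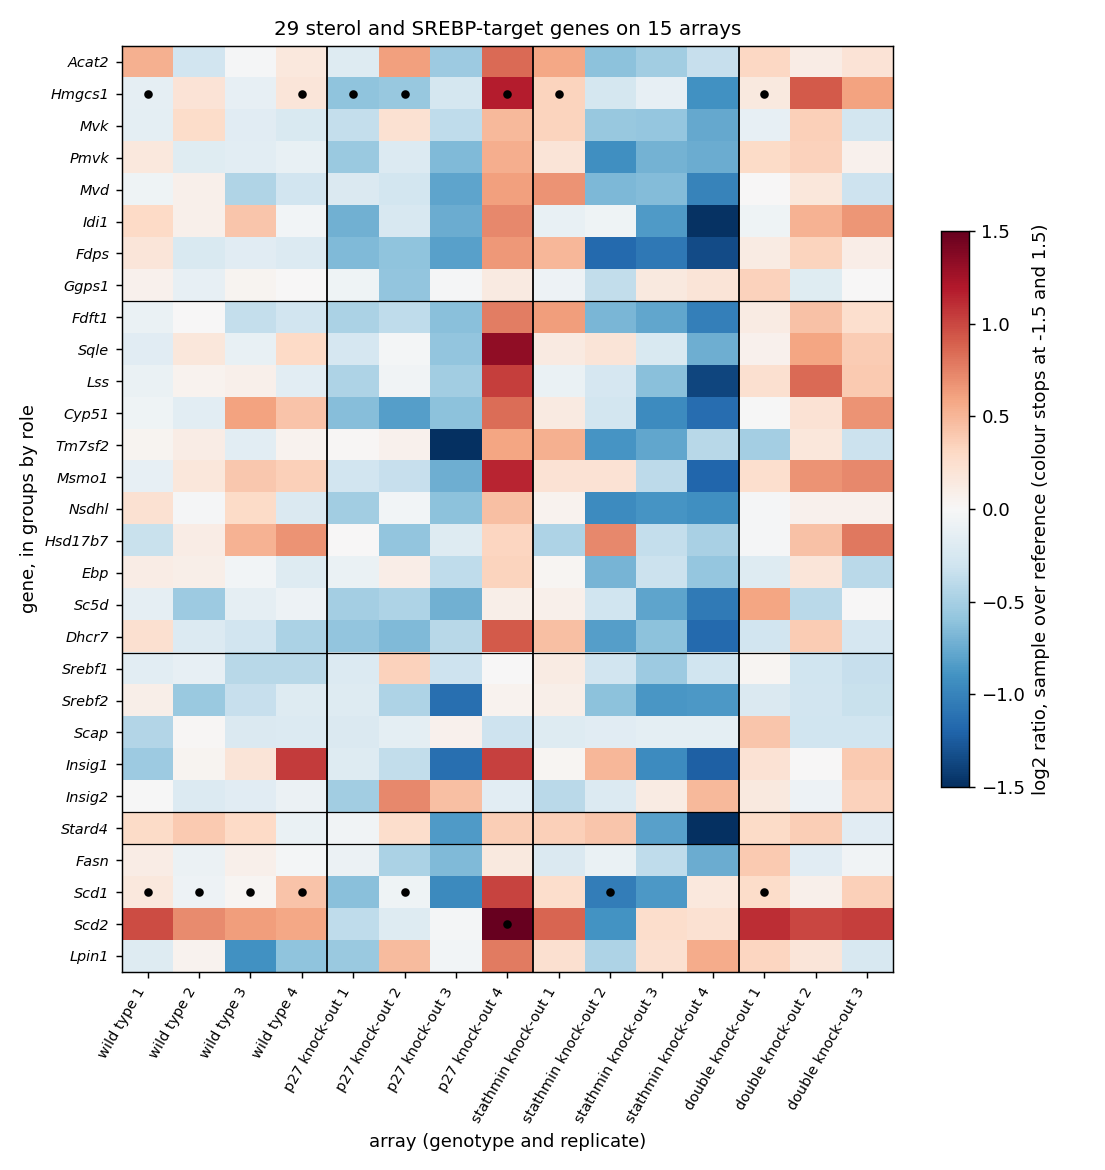
Log2 ratio of sample over reference (colour, red above and blue below the reference) for the 29 genes (rows, in groups by role: mevalonate pathway, squalene to cholesterol, SREBP regulation, sterol transport, fatty acid and glycerolipid synthesis) on the 15 arrays (columns, by genotype). Dots mark spots that the scanner software flagged as outliers, called non-uniform in the text. Nearly all enzyme rows are red on p27 knock-out 4 and blue on stathmin knock-out 3 and 4.

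The mean of the sterol enzymes was steady across wild type arrays and spread widely across those of each single knock-out. Single enzymes were less steady in wild type than their mean: over the 18 enzymes with a value on every array, the SD among wild type arrays had a median of 0.22 and reached 0.46 for Hsd17b7 and 0.37 for Cyp51, against medians of 0.65 in p27, 0.58 in stathmin and 0.28 in double knock-out cells. Over these 18 enzymes, the mean log2 ratio was 0.034, -0.034, 0.017 and -0.015 on the 4 wild type arrays. On the p27 knock-out arrays it was -0.37, -0.24, -0.60 and 0.66, and on the stathmin knock-out arrays 0.21, -0.45, -0.61 and -0.86. The double knock-out arrays gave 0.064, 0.29 and 0.15. The means were 0.00057 ± 0.031 (SD, n = 4), -0.14 ± 0.55 (SD, n = 4), -0.43 ± 0.46 (SD, n = 4) and 0.17 ± 0.11 (SD, n = 3) in wild type, p27, stathmin and double knock-out cells. Of these means, 3 of 4 of each single knock-out were below all wild type arrays and the remaining one, p27 knock-out 4 or stathmin knock-out 1, was above them all. All 3 double knock-out arrays were above the highest wild type array. On p27 knock-out 4, 18 of 18 enzymes were above their own mean over the arrays, and on stathmin knock-out 4, 17 of 18 were below it. A wider spread than in wild type was not particular to these enzymes. In p27 knock-out cells the array mean of every other gene list also had a larger SD. So it had in stathmin knock-out cells for all lists but macrophage (0.37 against 0.51) and endothelial markers (0.24 against 0.31). For mitosis genes the SD was 0.35, 0.75 and 0.67 in wild type, p27 and stathmin knock-out cells, and for adipocyte markers 0.091, 0.45 and 0.64.

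Lss, lanosterol synthase, spanned a 5.36-fold range, from -1.38 on stathmin knock-out 4 to 1.04 on p27 knock-out 4. Msmo1, the sterol C4-methyl oxidase listed as Sc4mol, spanned 5.04-fold between the same arrays. Of the 19 enzymes, 12 were lowest on stathmin knock-out 4 and 14 were highest on p27 knock-out 4, non-uniform spots left out. Members as a group were more variable than most genes: the median SD within a genotype was 0.47 for the 29 genes and 0.32 for all tested genes, and the median range over the arrays was 1.69 against 1.13. Insig1 had the widest spread of those measured on every array, with an SD of 0.72. Scap, which carries SREBP, and Ggps1, which makes geranylgeranyl diphosphate, were among the steadiest, at 0.22 and 0.25.

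The enzymes of the mevalonate pathway, which builds isoprenoid units from acetyl-CoA, differed in how far they moved. Fdps, which joins these units to farnesyl diphosphate, read 0.18, -0.23, -0.17 and -0.20 in wild type, -0.67, -0.61, -0.81 and 0.65 in p27 knock-out, 0.50, -1.17, -1.07 and -1.34 in stathmin knock-out and 0.12, 0.33 and 0.099 in double knock-out cells. Its 3 low p27 knock-out arrays and 3 low stathmin knock-out arrays were below every wild type array, and p27 knock-out 4 and stathmin knock-out 1 were above them. Mevalonate diphosphate decarboxylase, Mvd, ran from -1.01 on stathmin knock-out 4 to 0.67 on stathmin knock-out 1. Pmvk, the kinase before it, ran from -0.93 on stathmin knock-out 2 to 0.55 on p27 knock-out 4, and mevalonate kinase Mvk from -0.77 to 0.49. Acat2, the thiolase that starts the route, ran from -0.62 to 0.85, with wild type between -0.29 and 0.53.

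Among the enzymes from squalene to cholesterol, Sqle, the squalene epoxidase, read -0.17, 0.18, -0.12 and 0.30 in wild type, -0.25, -0.031, -0.59 and 1.33 in p27 knock-out, 0.14, 0.20, -0.22 and -0.73 in stathmin knock-out and 0.065, 0.59 and 0.39 in double knock-out cells. The genotypes overlapped, and 1.33 was the highest value of any sterol enzyme. Dhcr7, the reductase of the last step, ran from -1.16 on stathmin knock-out 4 to 0.92 on p27 knock-out 4, and Cyp51 from -1.15 to 0.83 between the same arrays. Tm7sf2, a sterol reductase, was lowest on p27 knock-out 3 (-1.55), apart from its other p27 knock-out values of 0.019, 0.062 and 0.59. Smaller ranges were found for Ebp, from -0.69 to 0.33, and Hsd17b7, from -0.59 to 0.80, the latter with wild type values from -0.34 to 0.68.

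In the fatty acid arm, Fasn read 0.11, -0.09, 0.079 and -0.029 in wild type and -0.21, -0.098, -0.38 and -0.74 in stathmin knock-out cells. The knock-out values were all below the wild type range, the nearest (-0.098) only just. Scd1, the desaturase next to Scd2, was measured on 8 arrays, from -0.96 on p27 knock-out 3 to 1.02 on p27 knock-out 4. Lpin1 was low in wild type, at -0.19, 0.052, -0.91 and -0.60, and read -0.55, 0.48, -0.042 and 0.78 in p27 knock-out, 0.24, -0.47, 0.24 and 0.55 in stathmin knock-out and 0.32, 0.18 and -0.24 in double knock-out cells. It was the member whose 3 differences from wild type were all at least 0.50, and its genotypes overlapped.

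**Figure D2:**
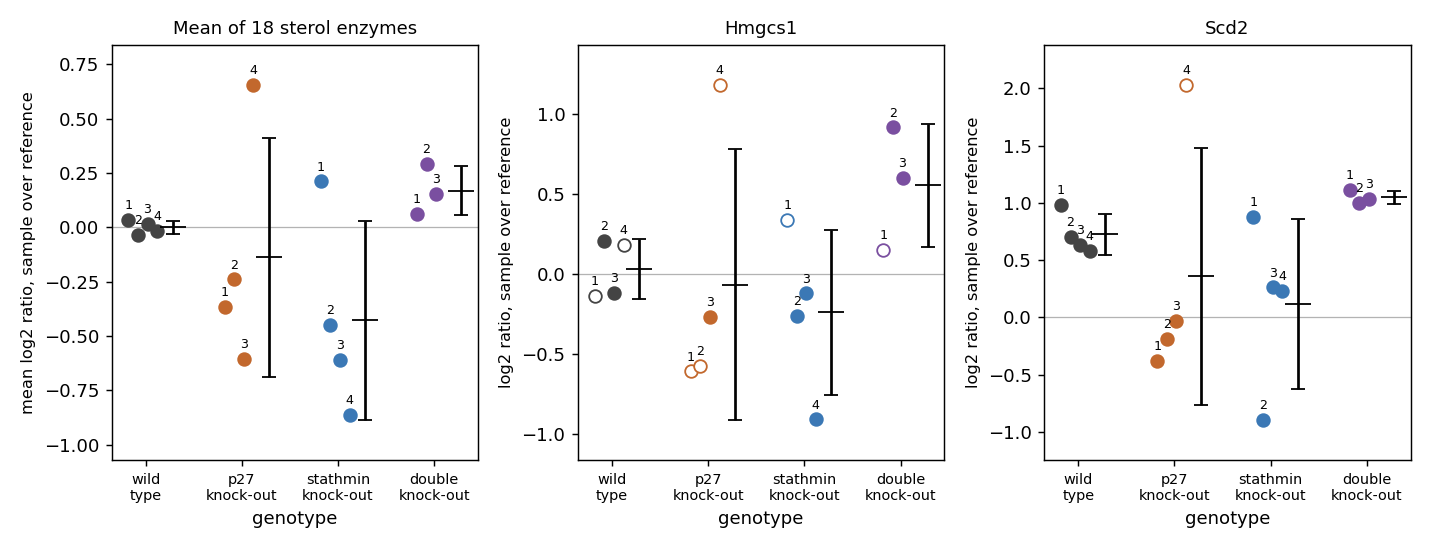
Mean log2 ratio of 18 sterol enzymes (left), Hmgcs1 (middle) and Scd2 (right) on each array, by genotype; numbers are the replicate, open circles are spots called non-uniform, and the bar gives mean and SD over all arrays of the genotype. Wild type enzymes lie between -0.034 and 0.034, and p27 knock-out 4 stands at 0.66, 1.18 and 2.03 in the respective panels.

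In p27 knock-out cells against wild type, no member passed the test: 0 of 28 tested had an adjusted p under 0.05, as did 0% of 18681 genes (limma, Benjamini-Hochberg over all tested genes). At an unadjusted p under 0.05 there was 1 member, against 5.71% of all genes. The differences were below 0 for 18 members and above 0 for 10, with a median of -0.16 beside 0.015 for all genes. Arrays of the 2 genotypes did not overlap, with p27 knock-out lower, for 2 members, Scd2 and Hmgcs1, against 1.37% of all genes, with non-uniform spots left out. Hmgcs1 here is 1 p27 knock-out array (-0.27) against 2 wild type arrays, and the left-out spots of p27 knock-out 4, at 1.18 for Hmgcs1 and 2.03 for Scd2, lay above all wild type arrays. The shift depended on single arrays. Without p27 knock-out 3 the median was -0.00035, with 14 members below 0 and 13 above, and without wild type 1 it was -0.09. Without p27 knock-out 4 it was -0.34, with 5 members at an unadjusted p under 0.05, and the count was 2 without p27 knock-out 1 or wild type 2. Over all genes the count rose as well, from 1067 of 18681 with every array. It was 1587 of 18675 without p27 knock-out 4, 2179 of 18673 without p27 knock-out 1 and 1351 of 18675 without wild type 2. Scd1 was not tested, because all of its wild type spots were called non-uniform.

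Scd2, a stearoyl-CoA desaturase that makes monounsaturated fatty acids, had the smallest p. Its log2 ratio was 0.98, 0.71, 0.63 and 0.58 in wild type and -0.38, -0.19 and -0.032 on p27 knock-out 1 to 3. These 3 arrays lay below all 4 wild type arrays, a difference of -0.92 (SE 0.31, unadjusted p = 0.0103, adjusted p = 0.794, limma). The spot of p27 knock-out 4 was called non-uniform and left out, and its value was 2.03, the highest of all arrays. With it the difference was -0.37 (SE 0.46, adjusted p = 0.867, limma). The Scd2 probe was saturated in the sample channel on 1 array, the only probe of the 29 genes that was. Its sample signal was highest on p27 knock-out 4. Next came Lpin1, a phosphatidate phosphatase of glycerolipid synthesis, which read 0.58 higher (SE 0.31), Fasn, fatty acid synthase, which read lower (-0.28, SE 0.19), and Cyp51, lanosterol demethylase, also lower (-0.51, SE 0.37). The differences of Srebf1 (0.24, SE 0.17), of the isomerase Idi1 (-0.43, SE 0.36), of the sterol reductase Hsd17b7 (-0.36, SE 0.31) and of the sterol dehydrogenase Nsdhl (-0.25, SE 0.26) followed. Adjusted p was between 0.794 and 0.840 for these 8 genes.

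By its brightest probe, every sterol enzyme had a lower mean in stathmin knock-out than in wild type cells, with none passing the test. The smallest difference was that of Ggps1 (-0.023). Other tested probes of Sc5d (0.56), Ggps1 (0.19) and Dhcr7 (0.031) read above wild type, and the further tested probes of the other enzymes read below it. On stathmin knock-out 1, 14 of 18 enzymes were above their own mean over the arrays. Again 0 of 28 members were called, against 0.00535% of 18688 genes. There were 2 members with an unadjusted p under 0.05, both lower, against 4.75% of all genes. Members were below 0 in 24 of 28 cases, with a median of -0.38 beside 0.011 for all genes. The 8 mevalonate pathway enzymes were below 0 in 8 of 8 (median -0.40) and the 11 enzymes from squalene to cholesterol in 11 of 11 (median -0.39). Of the 5 regulators, 2 were below 0 and 3 above. Non-overlapping arrays, lower in the knock-out, were seen for 3 members, Idi1, Fasn and Hmgcs1, against 1.62% of genes. For Fasn the nearest values were close, at -0.098 in the knock-out and -0.090 in wild type. Hmgcs1 rests on 3 arrays against 2 there, with the nearest values equal to 2 decimals at -0.12, and its left-out spot of stathmin knock-out 1, at 0.34, lay above every wild type array.

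The strongest of these was Nsdhl. It read 0.23, -0.015, 0.29 and -0.22 in wild type and 0.048, -0.95, -0.89 and -0.92 in stathmin knock-out cells. The last 3 arrays were below all wild type arrays and the first was within them (difference -0.75, SE 0.26, unadjusted p = 0.0118, adjusted p = 0.908, limma). Idi1, which interconverts the isoprenoid building blocks, read 0.30, 0.073, 0.41 and -0.036 against -0.11, -0.061, -0.85 and -1.48. All 4 knock-out arrays were lower than the lowest wild type array, at a difference of -0.81 (SE 0.36, unadjusted p = 0.0393, limma). The other genes of smallest p were Scd2 (-0.61, SE 0.28), Cyp51 (-0.76, SE 0.37), the sterol isomerase Ebp (-0.38, SE 0.19), Fasn (-0.38, SE 0.19), Lpin1, which read higher (0.55, SE 0.31), and phosphomevalonate kinase Pmvk (-0.47, SE 0.27), with adjusted p of 0.908 for each. Stathmin knock-out 1 stood apart from its group: without it the median was -0.59 and 12 members had an unadjusted p under 0.05, and without stathmin knock-out 2 there were 6. Without stathmin knock-out 4 the median was -0.23, with 1 member at an unadjusted p under 0.05. The count was also 1 without stathmin knock-out 3, wild type 1 or wild type 3, and 5 without p27 knock-out 4, which enters through the shared spread. Over all genes it was 888 of 18688 with every array, and 1554 of 18687 without stathmin knock-out 1. It was 924, 1039 and 467 of 18688 without stathmin knock-out 2, 3 and 4, respectively. Without wild type 1, wild type 3 and p27 knock-out 4 it was 754 of 18667, 325 of 18682 and 920 of 18688. The 16 mitosis genes were below 0 in 16 of 16 here, with a median of -0.81 and array means of -1.52 to -0.089 against -0.060 to 0.69 in wild type; their part in the result was not tested.

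Double knock-out cells were close to wild type, on the high side. None of 28 members was called, against 0% of 18688 genes, and 0 had an unadjusted p under 0.05 against 2.34% of genes. Values were above wild type for 23 members and below for 5, with a median of 0.14 beside -0.003 for all genes. All 8 mevalonate pathway enzymes and 8 of 11 later enzymes were above 0. Arrays did not overlap, with the double knock-out higher, for 4 members, Hmgcs1, Lss, Fdft1 and Scd2, against 3.05% of genes.

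Hmgcs1, the synthase that makes HMG-CoA at the entry to the mevalonate pathway, had the smallest p. On the arrays with uniform spots it read 0.92 and 0.60 in double knock-out cells and 0.21 and -0.12 in wild type, a difference of 0.71 (SE 0.31, unadjusted p = 0.0608, adjusted p = 1.00, limma) over 2 arrays against 2. With every spot kept, the double knock-out values were 0.15, 0.92 and 0.60, the wild type values -0.14, 0.21, -0.12 and 0.18, and the difference 0.52 (SE 0.39); the lowest double knock-out array then lay within the wild type range. The other tested probes of Hmgcs1 differed by 0.086 (SE 0.36) and 0.35 (SE 0.52). Lss was 0.24, 0.85 and 0.39 against -0.096, 0.054, 0.071 and -0.16, with every double knock-out array above wild type (0.52, SE 0.36). Squalene synthase Fdft1 differed by 0.45 (SE 0.37), Lpin1 by 0.50 (SE 0.33), Scd2 by 0.33 (SE 0.31) and Pmvk by 0.30 (SE 0.29). Sterol desaturase Sc5d differed by 0.29 (SE 0.29) and Insig2 by 0.26 (SE 0.27). The adjusted p was 1.00 for all 8.

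**Figure D3:**
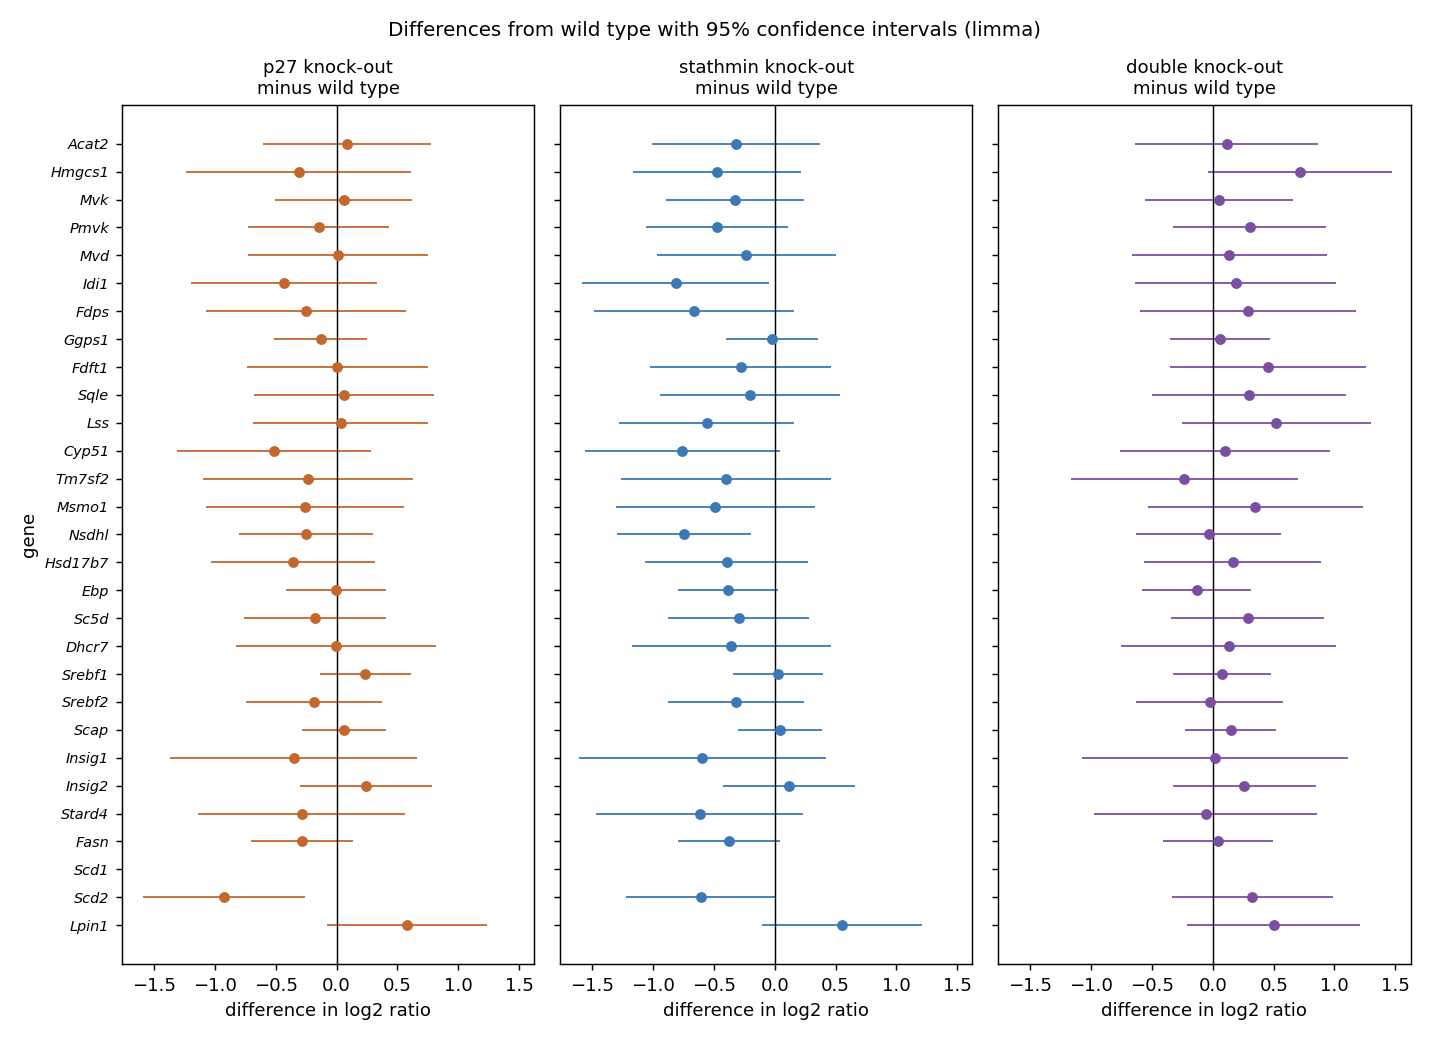
Difference in log2 ratio from wild type for each of the 29 genes (rows) in p27 knock-out (left), stathmin knock-out (middle) and double knock-out cells (right), with 95% confidence intervals from limma; Scd1 has no value. Sterol enzymes lie to the left of 0 in stathmin knock-out cells and mostly to the right in double knock-out cells, and the intervals of all but 1, 2 and 0 genes in the respective panels include 0.

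Against the single knock-outs the double knock-out cells read higher for nearly every member, and no difference passed the test. These comparisons share arrays with those above and are no separate evidence. Against p27 knock-out cells, 0 of 29 members were called (0% of 18703 genes), 2 had an unadjusted p under 0.05 (3% of genes) and 25 of 29 were above 0, with a median of 0.23. The 2 members, Scd2 and Hmgcs1, were also those whose arrays did not overlap, against 1.49% of genes. For Hmgcs1 the p27 knock-out group is 1 array, assumed to vary like the other groups, and the left-out spot of p27 knock-out 4 (1.18) lay above every double knock-out array, as did that of Scd2 (2.03). Scd2 differed by 1.25 (SE 0.33, unadjusted p = 0.0023, limma), Hmgcs1 by 1.03 (SE 0.38) and Idi1 by 0.62 (SE 0.38), each with an adjusted p of 1.00 in limma. With the non-uniform spots kept, Scd2 differed by 0.69 and Hmgcs1 by 0.62. Leaving out p27 knock-out 4 took the median to 0.50 and the count at an unadjusted p under 0.05 to 12. Leaving out p27 knock-out 3 took them to 0.10 and 1, with 10 members below 0. Over all genes the count was 562 of 18703 with every array. It was 1021 of 18697 without p27 knock-out 4 and 925 of 18677 without p27 knock-out 3.

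Against stathmin knock-out cells, 28 of 29 members were above 0, with a median of 0.50. No member was called (0% of 18710 genes), while 7 had an unadjusted p under 0.05, against 3.9% of genes, all of them higher in the double knock-out. The 7 were Hmgcs1, Scd2, Lss, Pmvk, Idi1, Nsdhl and farnesyl diphosphate synthase Fdps. Arrays did not overlap for 5 members, Hmgcs1, Scd2, Lss, Idi1 and Msmo1, against 2.35% of genes. Hmgcs1 rests on 2 double knock-out and 3 stathmin knock-out arrays here, and with all spots kept stathmin knock-out 1 (0.34) lay above double knock-out 1 (0.15). Hmgcs1 differed by 1.19 (SE 0.29), Scd2 by 0.93 (SE 0.31) and Lss by 1.08 (SE 0.36), each with an adjusted p of 1.00 (limma). With non-uniform spots kept, the unadjusted p was 0.0633 for Hmgcs1 (0.79) and 0.0843 for Scd2 (0.93, limma). Without stathmin knock-out 1 the median was 0.73 and 15 members had an unadjusted p under 0.05. Without stathmin knock-out 4 they were 0.34 and 4, and without double knock-out 3 they were 0.51 and 4. Over all genes the count was 729 of 18710 with every array and 1250 of 18709 without stathmin knock-out 1. It was 551 of 18710 without stathmin knock-out 4 and 316 of 18709 without double knock-out 3.

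The interaction asks whether the effect of losing 1 protein depends on the presence of the other. It was positive for 25 of 28 members, with a median of 0.71 beside -0.023 for all genes, and 0 of 28 were called (0% of 18681 genes). At an unadjusted p under 0.05 there were 7 members, all positive: Scd2, Idi1, Hmgcs1, Nsdhl, Cyp51, Fasn and Pmvk, against 7.36% of all genes. Scd2 had an interaction of 1.86 (SE 0.43, unadjusted p = 0.001, adjusted p = 0.652, limma), Idi1 of 1.43 (SE 0.52) and Hmgcs1 of 1.5 (SE 0.48). The value of Hmgcs1 rests on 1 p27 knock-out, 2 wild type, 2 double knock-out and 3 stathmin knock-out arrays. With non-uniform spots kept, Scd2 gave 1.30 (SE 0.68) and Hmgcs1 0.89 (SE 0.53). Without p27 knock-out 4 the median was 0.89 and the count 15, and without stathmin knock-out 1 the count was 12. Without stathmin knock-out 4 the median was 0.50 and the count 4, and without p27 knock-out 3 they were 0.57 and 4. Over all genes the count was 1374 of 18681 with every array. It was 1905 of 18675 without p27 knock-out 4 and 1747 of 18680 without stathmin knock-out 1. Without stathmin knock-out 4 it was 965 of 18681, and without p27 knock-out 3 it was 1746 of 18657. The median half-width of the 95% interval was 1.00 for members in this comparison and 0.68 in that of p27 knock-out with wild type, wider than the median differences.

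Within slides the picture followed the same outlying arrays. The median difference of the members between p27 knock-out and wild type was -0.35, -0.16, -0.55 and 0.60 on slides 1 to 4. Between stathmin knock-out and wild type it was 0.20, -0.28, -0.48 and -0.70. Each single knock-out thus read below wild type on 3 of 4 slides. The double knock-out read above wild type on 3 of 3 slides, by 0.13, 0.18 and 0.083.

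The regulators did not share 1 pattern. Srebf2, the SREBP of the sterol genes, read 0.09, -0.56, -0.35 and -0.19 in wild type, -0.19, -0.47, -1.13 and 0.048 in p27 knock-out, 0.087, -0.61, -0.87 and -0.87 in stathmin knock-out and -0.21, -0.28 and -0.33 in double knock-out cells. The genotypes overlapped. Srebf1 ran from -0.54 to 0.34 and Scap from -0.44 to 0.41, a range of 1.85-fold and 1.80-fold. Insig1, itself an SREBP target that retains SCAP, read -0.54, 0.038, 0.19 and 1.05 in wild type, so that its wild type arrays alone spanned most of its range. It was at -1.23 on stathmin knock-out 4 and 1.02 on p27 knock-out 4. Insig2, the second INSIG gene, ran from -0.52 to 0.72, with both ends in p27 knock-out cells. Stard4, a carrier of cholesterol in the cytosol, was lowest on stathmin knock-out 4 (-1.55) and p27 knock-out 3 (-0.85).

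Likeness to Hmgcs1 over the arrays was described for every gene, with non-uniform spots kept, since 7 of its 15 spots were called so; this was decided after the values had been seen. Of 28 other members, 7 had r of at least 0.8 with Hmgcs1, as did 28 of 18709 genes (0.15%), and this is a description without a test. The 7 were Lss, Msmo1, Sqle, Fdft1, Dhcr7, Fdps and Cyp51, all sterol enzymes, and Lss (r = 0.88) ranked 3 among all genes behind Ppp1r3d and Dus1l. In all, 9 members were among the 50 genes most like Hmgcs1. At the other end, Lpin1 (0.21), Ggps1 (0.16), Srebf1 (0.034), Scap (-0.18) and Insig2 (-0.31) did not follow it.

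**Figure D4:**
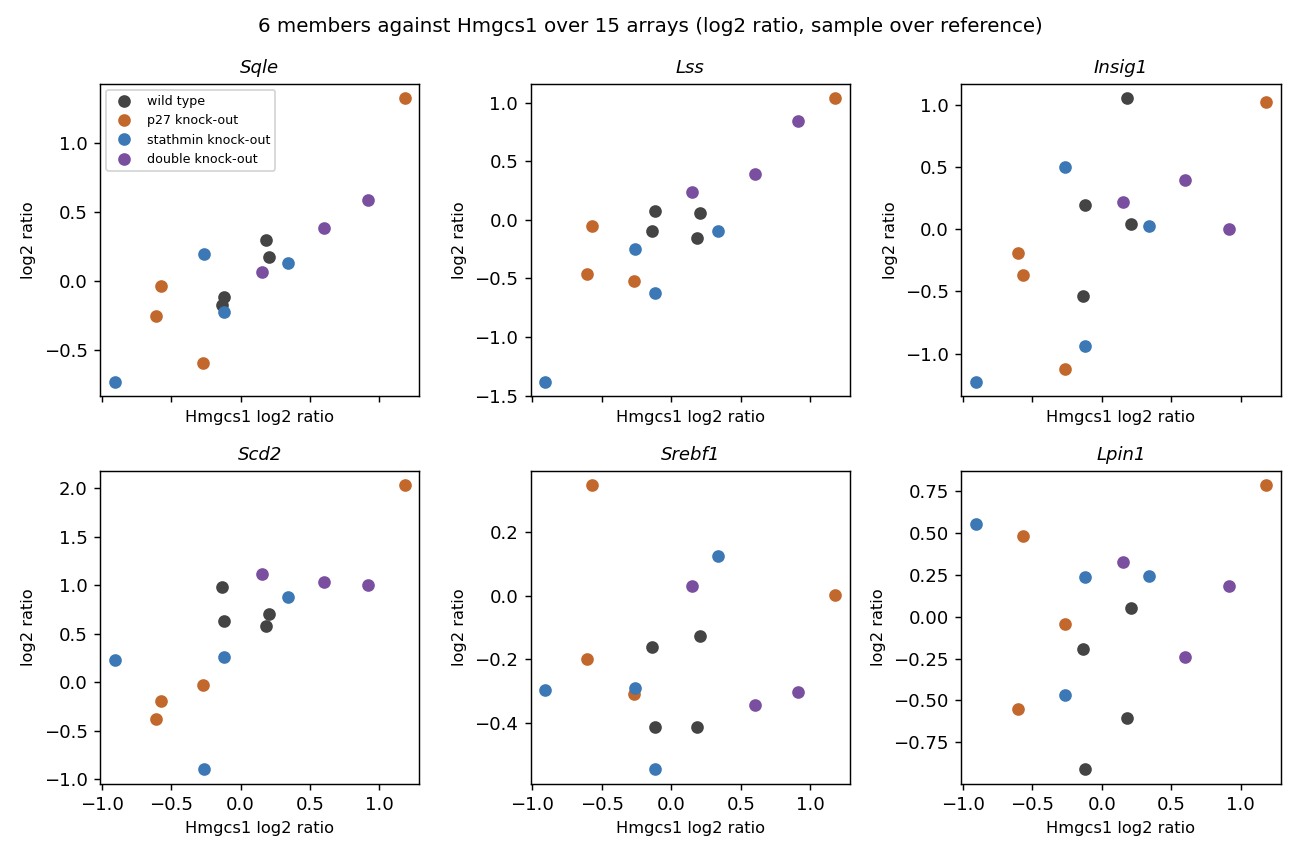
Log2 ratio of 6 members (vertical axes) against that of Hmgcs1 (horizontal axis) on 15 arrays, 1 point per array coloured by genotype, non-uniform spots kept. Sqle, Lss and Scd2 rise with Hmgcs1 (r of 0.88, 0.88 and 0.78), Insig1 less closely (0.64), and Srebf1 and Lpin1 do not (0.034 and 0.21).

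Of 10 regulators and SREBP targets set against Hmgcs1, Scd2 alone passed a permutation test with Benjamini-Hochberg adjustment over the 10 (Pearson r = 0.78, p = 0.00061, adjusted p = 0.0061; Spearman rho = 0.81, p = 0.00051, adjusted p = 0.0051; n = 15, two-sided, 100000 resamples). Insig1 was next (r = 0.64, adjusted p = 0.0535; rho = 0.62, adjusted p = 0.0752, permutation test), then Scd1 (r = 0.57), Fasn (0.52), Stard4 (0.50) and Srebf2 (0.50). Without the arrays farthest from the median of Hmgcs1, p27 knock-out 4 and double knock-out 2, Scd2 had r = 0.66 with an adjusted p of 0.134 (permutation test). The call by Pearson r thus rests on those arrays. By Spearman rho Scd2 still passed without them, narrowly (rho = 0.75, adjusted p = 0.0477, permutation test). With genotype means taken out, Scd2 had r = 0.73 (adjusted p = 0.0398, permutation test). Its rho was then 0.41 and did not pass (adjusted p = 0.316, permutation test). With slide means taken out, r was 0.80 (adjusted p = 0.00155) and rho 0.81 (adjusted p = 0.0046, permutation test). Stard4 (r = 0.82), Srebf2 (0.72), Insig1 (0.71), Fasn (0.65) and Scd1 (0.62) passed there as well, Fasn by r only. The result also depends on the probe of Hmgcs1. With another probe, Scd2 had r = 0.67 and Srebf2, Insig1, Fasn and Scd1 passed as well, at 0.69 to 0.75, whereas with the remaining one Scd2 was at -0.13 and none of the 10 passed. These probes had r of 0.65 and 0.30 with the brightest one. With Sqle in place of Hmgcs1, Insig1 (0.82), Stard4 (0.64), Scd2 (0.62), Srebf2 (0.59), Scd1 (0.59) and Fasn (0.58) passed by Pearson r. By Spearman rho only Insig1 passed there (0.81). In all, 8 settings were run, 4 of them added after the data had been seen.

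Several probes of a gene did not always give the same sign. Of 19 members with more than 1 tested probe, 9 had probes on both sides of 0 in the comparison of p27 knock-out with wild type, 4 in that of stathmin knock-out and 3 in that of the double knock-out. Over the 30 further probes, the median r with the brightest probe was 0.78 and the lowest -0.15, for a dim probe of Srebf2.

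Other genes of sterol and fatty acid supply were read beside the members. Of 15 further genes of the sterol and SREBP pathway, 14 were tested against wild type and 0 called in each case, with 10 below 0 in p27 knock-out cells (median -0.085) and 13 below 0 in stathmin knock-out cells (median -0.23). Those of smallest p were Mbtps2, a protease that releases SREBP (-0.44, SE 0.21), and malic enzyme Me1 (-0.31, SE 0.16) in p27 knock-out cells. In stathmin knock-out cells they were the fatty acid desaturase Fads2 (-0.48, SE 0.18) and ATP citrate lyase Acly (-0.42, SE 0.16), and in double knock-out cells Fads2 (-0.38, SE 0.19) and the elongase Elovl5 (-0.41, SE 0.24). The 11 genes of sterol efflux, storage and LXR, which handle surplus sterol, were mostly above 0, with 9 above 0 in p27 knock-out (median 0.37) and 8 above 0 in stathmin knock-out cells (median 0.25), and 0 called. In double knock-out cells 6 were below 0 and 5 above, from -0.81 to 0.84, with a median of -0.03 and 0 called. In p27 and stathmin knock-out cells, lysosomal acid lipase Lipa read 0.53 (SE 0.23) and 0.55 (SE 0.23) higher, and the lysosomal sterol carrier Npc2 0.86 (SE 0.38) and 0.78 (SE 0.38). In double knock-out cells Abcg1, a sterol exporter, differed by 0.84 (SE 0.51) and Lipa by 0.39 (SE 0.25). The mean of these 11 genes was highest on p27 knock-out 2 (0.81), the array on which the macrophage markers were also highest. Those markers ran from -1.80 to -0.56 in wild type, -2.79 to 1.88 in p27, -1.79 to -1.02 in stathmin and -2.44 to 1.32 in double knock-out cells; the part of such cells in the result was not tested. Of the mitosis genes, Cenpa differed by -0.75 (SE 0.46), -1.42 (SE 0.46) and -0.62 (SE 0.50) in p27, stathmin and double knock-out cells, Birc5 by -0.49 (SE 0.39) in the first, Cdc20 by -0.87 (SE 0.31) in the second and Aurkb by -0.45 (SE 0.55) in the third, with 0 of 16 called in each.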

How the data were processed

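Per the file headers, the authors' 15 scanner files hold the Cy5 (sample) and Cy3 (reference) intensity of each spot from Feature Extraction 9.1.3.1, a log10 ratio, and flags for outlier, saturated and background-level spots, and no dye swap was made. The log10 ratio was used only to check the authors' table. The authors also deposited a table of log2 ratios, used as an alternative, whose columns had medians of 0 to 0.049 and correlated with the scanner ratios at 0.963 to 0.995. Here intensities were corrected with normexp (offset 50), normalised by loess within arrays and fitted with limma 3.58.1 in R 4.3.3, with 1 mean per genotype. Spots flagged in either channel as non-uniform or as population outliers, both called non-uniform in the text, were dropped. This left Hmgcs1 and Scd1 with 8 arrays and Scd2 with 14. Tests took probes that stood well above background in the sample channel on at least 3 arrays of 1 or more genotypes, and the brightest tested probe stood for the gene. Calls needed an adjusted p under 0.05 (Benjamini-Hochberg over all genes). The fit was tested on simulated data. Probes were named through RefSeq tables. Precision is limited by how few arrays there were. The genes and lists were chosen with earlier results of these data known. Named with values were, of the 29 genes, the 8 of smallest p in each comparison with wild type and 3 in each other one, and 2 of each further list. The permutation test used 100000 resamples. Alternatives changed the background correction, normalisation, filter, probe rule, blocks, weights, channel and arrays.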

Additional observations from a re-analysis of the deposited data

Results flagged for a closer look

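In 9 of 83 sets of 4 arrays, 1 array stood apart from the other 3 by a gap test that chance passes in about 1 of 20 sets, or 4.15 of 83. A set was a gene, or the mean of the members, in 1 genotype. Many of the genes varied together on the same arrays, so the sets are not independent and 9 cannot be weighed against 4.15. On p27 knock-out 4, Fdps (0.65), Cyp51 (0.83) and Dhcr7 (0.92) stood above the other arrays, the nearest of which were at -0.61, -0.61 and -0.41. On stathmin knock-out 1, Fdps (0.50) and Nsdhl (0.048) stood above their nearest arrays at -1.07 and -0.89. Hsd17b7 was high on stathmin knock-out 2 (0.72). In wild type, Mvk on array 2 (0.28) and Fdps on array 1 (0.18) were high and Sc5d on array 2 was low (-0.54).

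Scd2 had opposite directions of p27 loss with and without stathmin. Every p27 knock-out array with a value was below wild type and every double knock-out array was above the stathmin knock-out arrays, with an interaction of 1.86. It did not pass adjustment (adjusted p = 0.652, limma), and the left-out spot of p27 knock-out 4 lay above wild type.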

How the results depend on the processing

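No member was called (0) in any comparison under the 30 settings run (29 for the interaction). Of 985 values of 33 gene differences, 0 changed sign or passed the threshold (smallest adjusted p = 0.129, limma). Many settings leave a difference as it is, such as leaving out an array of a genotype not compared, so its sign could not change there. The 33 were those of smallest p, and other members did change sign. Without p27 knock-out 3, the members above 0 in p27 knock-out against wild type went from 10 to 13. The members' median ran from -0.34 to -0.00035 (p27 knock-out against wild type), -0.59 to -0.23 (stathmin knock-out) and 0.14 to 0.28 (double knock-out). Members at an unadjusted p under 0.05 numbered 0 to 5, 1 to 15 and 0 to 4, the 15 with array weights. The count over all genes rose too in those fits. With array weights it was 3876 of 18688 for stathmin knock-out, against 888 in the main fit. It was 1587 of 18675 where p27 knock-out had 5 members, against 1067 of 18681. For double knock-out it was 1173 and 3324 of 18688 where 4 members were counted, against 437. Against p27 knock-out, stathmin knock-out and as interaction, the median ran from 0.10 to 0.50, 0.34 to 0.73 and 0.50 to 0.89. With the replicate number as a block, medians were -0.16, -0.37, 0.18, 0.32, 0.59 and 0.71 with 0 members called; of 21 same-numbered pairs 12 correlated over 0.1, so the numbers were not taken to pair arrays. Array weights called 11 of 18688 genes in stathmin knock-out cells against wild type, where 1 (0.00535%) was called without them. They also called 11 of 18688 in double knock-out cells against wild type and 1 of 18681 in the interaction, with 0 called without them. None of these was a member, and 0 genes were called with weights in the other comparisons. The correlation of Srebf2 with Hmgcs1 passed with slide means taken out (0.7162), with the second Hmgcs1 probe (0.7142) and with Sqle in place of Hmgcs1 (0.5898). That of Scd2 no longer passed without the 2 farthest arrays (0.663) or on the 8 arrays with uniform Hmgcs1 spots (0.6374), and was -0.1253 with the third probe. The causes were not tested.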
